A study of Mus musculus with 12 samples.

Results

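Muscle that wastes raises a small set of ubiquitin ligases, the enzymes that mark proteins for the proteasome, together with transcription factors that switch them on. The 10 genes described here are a chosen list on this theme, and not each of them need rise in wasting: the RING ligases Trim63 (MuRF1) and Trim32, the F-box proteins Fbxo32 (atrogin-1), Fbxo30 (MUSA1), Fbxo21 (SMART) and Fbxo31, the forkhead factors Foxo1, Foxo3 and Foxo4, and the glucocorticoid-induced factor Klf15. They were chosen by gene symbol, and each of the 10 symbols matched 1 row of the 56941 rows in the deposited tables. All 10 passed the filter on low counts.

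RNA was sequenced from C2C12 cells, mouse myoblasts that fuse into myotubes with many nuclei. Cells of the ChR2::tdTomato genotype, an optogenetic line with the light-gated channel ChR2 and a red fluorescent protein, filled 6 wells, and cells of the Wild-Type genotype filled 6 wells. Both lines were grown on a fibrin gel, first in growth medium containing fetal bovine serum (2 days), later in differentiation medium containing horse serum and IGF-1 (6 days), with aminocaproic acid throughout. The labels name no light stimulation, give no animal or culture of origin for a well, and do not say whether the ChR2 line is a single clone, so p-values measure the spread between wells, and the transgene and the history of each line cannot be told apart.

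In wasting muscle, insulin and IGF-1 act through the kinase AKT, which phosphorylates FoxO factors and keeps them out of the nucleus. When that signal falls, FoxO factors enter the nucleus and transcribe Trim63, Fbxo32 and Fbxo30. Glucocorticoids act on Trim63 and Fbxo32 through their receptor and through Klf15. TRIM63 marks thick filament proteins and FBXO32 marks the translation factor eIF3f and MyoD, while bone morphogenetic protein signalling keeps Fbxo30 low. FoxO proteins are controlled largely by phosphorylation, which message levels do not show.

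Total estimated counts (in units of 1e6) ran from 7.39 to 12.2 in ChR2 wells and from 10.3 to 13.6 in wild-type wells 1, 3, 4 and 6, while wild-type well 2 had 1.06 and wild-type well 5 had 2.81. Wild-type wells 2 and 5 also stood apart in their RNA: the 7SL RNA, which has no poly(A) tail, took 24.8% and 8.37% of their counts against at most 0.0341% elsewhere. Per the protocol, samples with little RNA were prepared by removing ribosomal RNA, and which samples these were is not stated. The fold changes of the 10 genes and the counts of each pathway list are therefore given with and without these 2 wells. All 10 myotube markers looked for were detected, with a summed level between 11200 and 13200 CPM (counts scaled to 1e6 per library) in ChR2 wells and between 9790 and 26700 CPM in wild-type wells. Endothelial markers summed to at most 0.687 CPM in any well and macrophage markers to at most 9.72 CPM, and of the neuronal and Schwann cell markers Rbfox3 had no count. Tubb3, a neuronal tubulin on the same list, was called higher in ChR2 wells (96.2 ± 17.8 against 61.2 ± 27.4 CPM, log2 fold change 0.67, adjusted p = 0.036), and that list summed to 77.3 to 126 CPM in ChR2 and 46.8 to 118 CPM in wild-type wells. Pparg, an adipocyte marker, was called higher as well (9.57 ± 1.25 against 6.04 ± 1.24 CPM, 0.72, adjusted p = 0.00526), the adipocyte list summing to at most 11.1 CPM. Both were also called without wild-type wells 2 and 5 (1.03 and 0.74).

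The RefSeq promoter of Trim63 is shown because Trim63 had the most negative fold change of the 10 genes over all 12 libraries, and that of Fbxo30 because it had the most negative one without wild-type wells 2 and 5. Both windows run from 250 bases before to 50 bases after the gene's start, on build GRCm38.p6, and 8 of the 10 genes had such a window, while Fbxo32 and Foxo4 are named only. The windows lie at chr4:134314870-134315169 on the plus strand for Trim63 and at chr10:11281337-11281636 on the plus strand for Fbxo30. Capitals mark matches to the glucocorticoid receptor palindrome, which reads GNACA, 3 bases of any kind, then TGTNC, with N for any base, and to the FoxO site GTAAACA, both searched on both strands. Sequences are written 5′ to 3′.
Trim63: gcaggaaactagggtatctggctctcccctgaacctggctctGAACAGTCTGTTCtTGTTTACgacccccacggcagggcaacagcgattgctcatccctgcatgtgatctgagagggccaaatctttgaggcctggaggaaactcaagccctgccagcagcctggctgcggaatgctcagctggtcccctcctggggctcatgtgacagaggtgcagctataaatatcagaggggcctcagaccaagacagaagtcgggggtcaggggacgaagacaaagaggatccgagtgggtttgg
Fbxo30: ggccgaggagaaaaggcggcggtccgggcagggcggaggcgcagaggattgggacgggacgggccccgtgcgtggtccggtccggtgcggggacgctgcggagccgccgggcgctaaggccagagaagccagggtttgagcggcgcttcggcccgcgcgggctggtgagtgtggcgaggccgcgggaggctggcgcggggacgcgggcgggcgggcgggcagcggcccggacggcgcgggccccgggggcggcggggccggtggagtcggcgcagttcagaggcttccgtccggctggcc

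In the Trim63 window the glucocorticoid receptor match, from 134314912 to 134314924, stood 1 base before the FoxO match, which lay on the minus strand from 134314926 to 134314932. The other 7 windows held neither match. The FoxO site was found in 3.65% of 32817 RefSeq promoters of the same length, the palindrome in 0.475% and both in 5 promoters. These matches describe letters only, and no binding was measured here. The Fbxo30 window was 79.7% G and C, against 57.0% in Trim63.

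The question was which of these messages differ between the genotypes once the cells have differentiated. Messages of Trim63, Fbxo32 and Fbxo30 were lower in the ChR2 line, by 2.03-fold, 1.67-fold and 1.80-fold, and no ChR2 well reached the lowest wild-type well for any of them. The other 7 genes did not pass the test, the FoxO factors among them. Of all 13168 genes tested, 28.1% were called (adjusted p under 0.05 by the Benjamini-Hochberg method, edgeR's quasi-likelihood test), with 14.1% of the genes tested lower and 14.0% higher in ChR2 wells, where the 10 genes gave 3 lower and 0 higher. Without wild-type wells 2 and 5 the same 3 genes were called, beside 35.2% of 13484 genes called, 16.3% lower and 18.9% higher. The shares lower and higher in either set of libraries are the background for the counts of each gene list below. The median log2 fold change of the 10 genes was -0.42 over all 12 libraries and -0.12 without those wells, beside -0.02 and 0 over all genes tested. Groups of wells without overlap and with the ChR2 line lower were found for 6.52% of genes over 12 libraries, and for 10.3% without wild-type wells 2 and 5.

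Trim63 (ENSMUSG00000028834) encodes the RING ligase of the thick filament. Its level was lowest at 41.2 CPM, with a median of 44.0 and a highest value of 47.2, in ChR2 wells, and 62.0, 80.7 and 157 CPM in wild-type wells. All 6 wild-type wells lay above every ChR2 well, with wild-type well 6 nearest to them and wild-type well 2 farthest away. The means were 44.1 ± 2.60 and 92.1 ± 33.4 CPM (SD, n = 6 wells each), a log2 fold change of -1.02 (SE 0.17, adjusted p = 0.000919, edgeR). Without wild-type wells 2 and 5 the wild-type mean was 78.7 ± 12.5 CPM (n = 4) and the log2 fold change was -0.82 (SE 0.10, adjusted p = 6.77e-05). The ChR2 wells were close together, with an SD of 5.91% of the mean against 36.3% in the wild-type line. Deposited estimated counts behind these levels ran from 316 to 1001, apart from 120 and 225 in wild-type wells 2 and 5.

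Fbxo32 (ENSMUSG00000022358) encodes the F-box subunit of an SCF ligase, in which the adaptor SKP1 links it to the scaffold CUL1. Its level ran from 28.8 to 42.4 CPM with a median of 37.0 in ChR2 wells, and from 49.4 to 71.5 CPM with a median of 61.6 in wild-type wells. The groups did not overlap, and wild-type wells 2 and 5 lay inside the range of the other wells of their line, at 57.7 and 66.0 CPM. Those 2 values rest on 44 and 185 counts. The log2 fold change was -0.74 (SE 0.12, adjusted p = 0.000764, edgeR), and -0.70 (SE 0.12, adjusted p = 0.000596) without those wells.

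Fbxo30 (ENSMUSG00000047648) encodes the F-box protein that is induced in denervated muscle when bone morphogenetic protein signalling is blocked. It stood at 38.3, 40.3 and 44.6 CPM as the lowest, median and highest ChR2 values, and at 49.8, 65.8 and 117 CPM in wild-type wells. The wild-type wells were far apart here, with well 1 at the top and well 2 at the bottom. The value of well 2 rests on 38 counts, so the gap to the ChR2 wells is imprecise there. The log2 fold change was -0.84 (SE 0.17, adjusted p = 0.00292, edgeR), and -0.91 (SE 0.17, adjusted p = 0.00177) without wild-type wells 2 and 5. It was -0.65 without wild-type well 1 alone, still called. Each of these 3 genes kept its call when any 1 of the 12 libraries was left out (highest adjusted p = 0.0091, for Fbxo30). In limma fits to log2(TPM + 1) over all 12 libraries none of the 3 passed (log2 differences -0.54, -0.29 and -0.41), and without wild-type wells 2 and 5 all 3 passed (-0.88, -0.71 and -0.92, adjusted p of at most 0.00523).

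**Figure D1:**
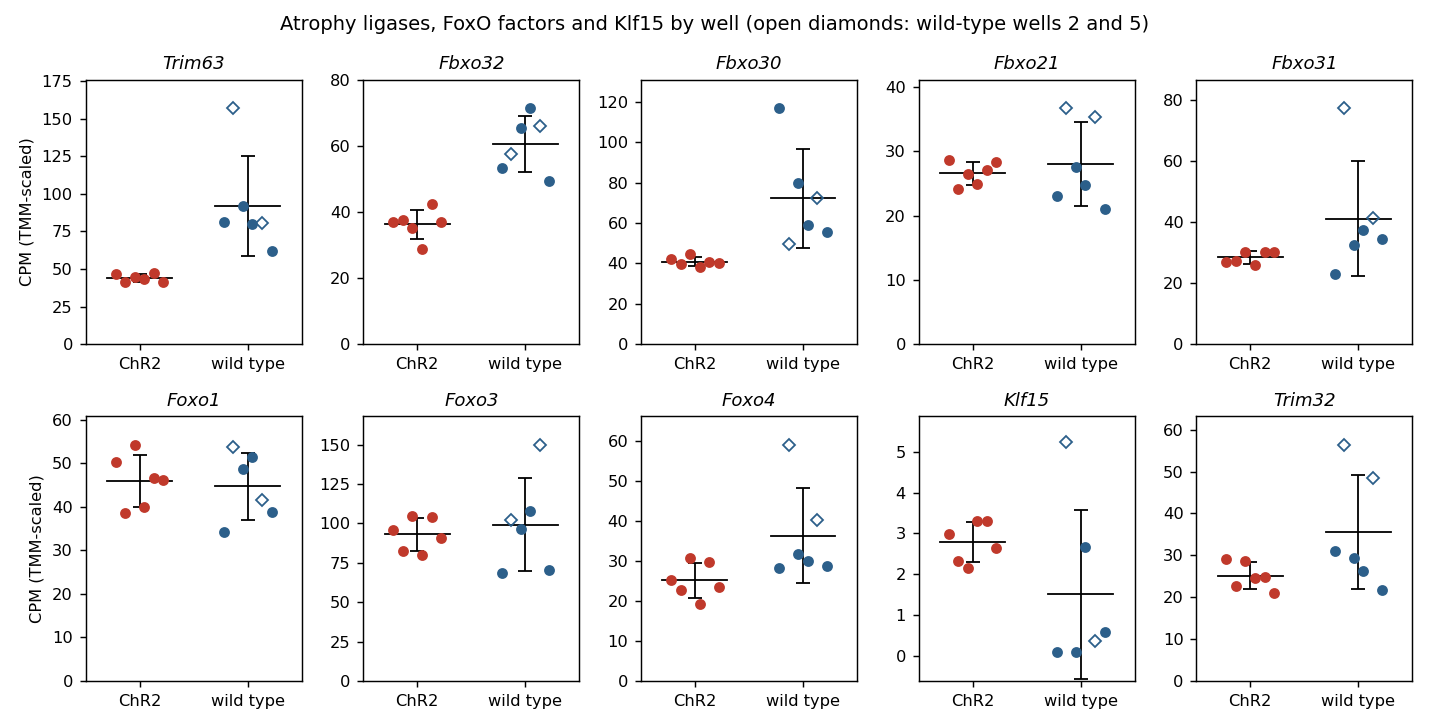
Levels of the 10 genes in each well, in CPM on TMM-scaled library sizes, with the mean as a horizontal line and the SD as a bar (n = 6 wells per line). Open diamonds are wild-type wells 2 and 5. Trim63, Fbxo32 and Fbxo30 show no overlap between the lines, and Klf15 is below 1 CPM in 4 of 6 wild-type wells.

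The remaining ligase genes were not called. Fbxo21, an F-box gene that FoxO factors induce in wasting muscle, stood at 26.6 ± 1.82 CPM with ChR2 and 28.0 ± 6.55 CPM without it, with a log2 difference of -0.02 (95% interval -0.32 to 0.28) that was 0.16 without wild-type wells 2 and 5. Fbxo31, whose protein directs degradation of cyclin D1, stood at 28.4 ± 2.04 and 41.0 ± 18.8 CPM (log2 fold change -0.42, adjusted p = 0.133). Wild-type well 2 alone held 77.3 CPM of Fbxo31, the other wild-type wells 23.0 to 41.4 CPM, and without wells 2 and 5 the log2 fold change was -0.15 (adjusted p = 0.361). Without wild-type well 1 alone Fbxo31 passed the test (-0.55, adjusted p = 0.0424).

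Trim32, the ligase that is mutated in a form of limb-girdle muscular dystrophy and that marks desmin filaments, stood at 25.1 ± 3.19 CPM with ChR2 and 35.6 ± 13.7 CPM without it. Wild-type wells 2 and 5 were the highest, at 56.4 and 48.5 CPM, and the other 4 wild-type wells ran from 21.8 to 31.1 CPM beside 21.1 to 29.1 CPM in the ChR2 line. Its log2 fold change of -0.41 (adjusted p = 0.138) was -0.09 (95% interval -0.35 to 0.17) without those 2 wells. Without wild-type well 6 alone, with wells 2 and 5 kept, it passed the test (-0.52, adjusted p = 0.0471).

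The 3 FoxO factors did not pass the test in either set of libraries. Foxo1 (ENSMUSG00000044167) ran from 38.7 to 54.3 CPM with a median of 46.4 in ChR2 wells and from 34.2 to 53.7 CPM with a median of 45.2 in wild-type wells, so the lines overlapped almost wholly. Its log2 fold change was 0.06 with a 95% interval of -0.22 to 0.34; leaving out wild-type wells 2 and 5 gave 0.10 (adjusted p = 0.551). Foxo3 (ENSMUSG00000048756), a FoxO factor known to switch on Fbxo32 in muscle, ran from 80.2 to 105 CPM in ChR2 wells and from 68.6 to 150 CPM in wild-type wells. Its highest value was in wild-type well 5 and its lowest in wild-type well 1. The log2 fold change of Foxo3 was -0.09 (95% interval -0.45 to 0.28), and 0.13 (-0.15 to 0.41) without wild-type wells 2 and 5. These intervals bound the change in both directions and do not show that the lines are equal.

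Foxo4 (ENSMUSG00000042903) stood at 25.2 ± 4.41 CPM in ChR2 wells and 36.3 ± 12 CPM in wild-type wells. Wild-type well 2 held 59.0 CPM and well 5 held 40.3 CPM, and the other 4 wells of that line lay at 29.6 ± 1.56 CPM. The log2 fold change was -0.44 (adjusted p = 0.0729), and -0.22 (adjusted p = 0.181) without wells 2 and 5.

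**Figure D2:**
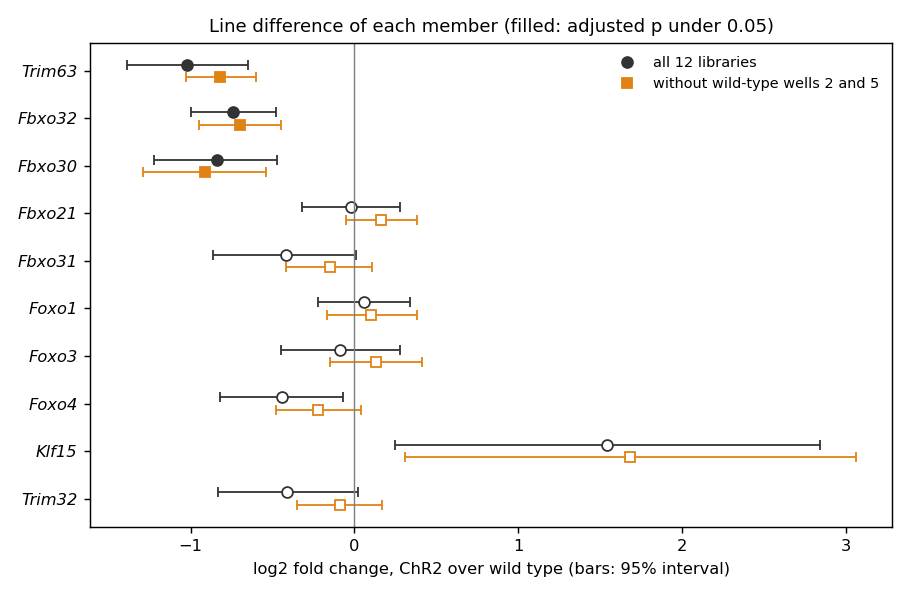
Log2 fold change of each gene, ChR2 over wild type, with its 95% interval from edgeR's quasi-likelihood fit. Black circles use all 12 libraries and orange squares leave out wild-type wells 2 and 5. Filled symbols have an adjusted p under 0.05, which are Trim63, Fbxo32 and Fbxo30 in both fits.

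Klf15 (ENSMUSG00000030087), a Krüppel-like factor that glucocorticoids induce and that raises branched-chain amino acid catabolism in muscle, was the scarcest of the 10. ChR2 wells ran from 2.14 to 3.31 CPM, on 17 to 41 counts a well. Wild-type wells 1, 3 and 5 held 1 count each, under the floor of 3 counts taken for detection, and well 6 held 8 counts (0.587 CPM). Wild-type well 4, in contrast, held 32 counts, 2.66 CPM, which lies inside the ChR2 range. Well 2 held 5.24 CPM on 4 counts, and the exact 95% Poisson interval of that count, which covers counting error only, ran from 1.43 to 13.4 CPM. The log2 fold change was 1.54 (SE 0.61, adjusted p = 0.0705, edgeR) over all libraries and 1.68 (SE 0.63, adjusted p = 0.0558) without wells 2 and 5, so Klf15 was not called. It was called without well 2 alone (1.76, adjusted p = 0.037) and without well 4 alone (2.69, adjusted p = 0.00509).

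Levels can be ordered across genes only per length, in the deposited TPM (transcript abundance scaled for length and to a fixed total). In wild-type wells 2 and 5 the 7SL RNA took 72.0% and 50.8% of all TPM, so the order is given in the other 10 wells. In the ChR2 line Trim63 led at 33.2 ± 4.14 TPM (n = 6), above every ChR2 value of the gene next to it, Foxo3 (18.0 ± 3.27 TPM). Fbxo30 (14.2), Fbxo31 (11.7), Foxo4 (11.2), Trim32 (10.7), Fbxo21 (9.33), Foxo1 (6.90) and Fbxo32 (6.77 TPM) followed, each overlapping its neighbour in range. Klf15 was last at 1.71 ± 0.280 TPM and apart from Fbxo32.

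In the 4 wild-type wells the order opened with Trim63 at 62.5 ± 13.1 TPM and Fbxo30 at 29.4 ± 12 TPM, whose ranges touched. Foxo3 (17.5 TPM) came next. Fbxo32 stood seventh at 11.7 ± 2.34 TPM, and none of the 4 wells overlapped with the ChR2 wells for Trim63, Fbxo32 or Fbxo30 on this scale either. On the CPM scale 10.3% of all genes tested in these 10 libraries were separated in that direction. Foxo1, at 6.78 ± 1.40 TPM, was ninth, and every one of its 4 values lay above those of Klf15.

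Ratios between 2 messages of the same well do not depend on how libraries are scaled. Ratios of the 3 lower ligases to Foxo1, to Foxo3 and to the summed myotube markers are given as a description with no test, since the genes were picked after their values were seen. Relative to Foxo1, the mean log2 ratio of Trim63 was -0.05 ± 0.16 in ChR2 wells and 0.99 ± 0.35 in wild-type wells (SD, n = 6 each), and all 6 wild-type wells lay above every ChR2 well. The same log2 ratio differed by -0.78 for Fbxo32 and by -0.81 for Fbxo30, with 6 and 5 wild-type wells above every ChR2 well. Relative to Foxo3 the log2 differences were -0.95 for Trim63, -0.68 for Fbxo32 and -0.71 for Fbxo30, with 5, 5 and 6 wild-type wells above every ChR2 well. With wild-type wells 2 and 5 left out, these differences ran from -1 to -0.81. The log2 fold changes of Foxo1 and Foxo3 were 0.06 and -0.09, so these ratios largely restate the fold changes of the 3 ligases. How many of all genes separate in such ratios was not counted. On the CPM scale 6.52% of genes tested separated with ChR2 lower over 12 libraries.

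In bulk RNA, fewer myotubes and less message per myotube cannot be told apart. Myotube markers were in part lower in the ChR2 line, 4 of 10 called lower (Myog, Ryr1, Ttn and Des) and 0 higher. Without wild-type wells 2 and 5 the counts were the same, with Mymk called in place of Des. Over all 12 libraries the uncalled Myh3, Ckm, Tnnt3 and Acta1 had log2 fold changes above 0 (0.58, 0.50, 0.41 and 0.19). The uncalled Mymk and Actn2 had values below 0 (-0.45 and -0.38). Of 6 markers of proliferating myoblasts 5 were higher, or 4 without wild-type wells 2 and 5, their summed level lying between 532 and 725 CPM in ChR2 wells and between 87.8 and 425 CPM in wild-type wells. Of 6 fibroblast markers tested 3 were higher in either set of libraries, with a summed level of 2810 to 3430 CPM against 742 to 3200 CPM. Relative to the summed myotube markers, the mean log2 ratio of Trim63 was -8.10 ± 0.13 in ChR2 wells and -7.50 ± 0.41 in wild-type wells, and 5 of 6 wild-type wells lay above every ChR2 well. For Fbxo32 and Fbxo30 this log2 ratio differed by -0.34 and -0.36, and 3 of 6 wild-type wells lay above every ChR2 well for each. The marker sum was 26680 and 19040 CPM in wild-type wells 2 and 5, and 9790 to 16100 CPM in the other 4. Ttn is part of that sum and reached 11500 CPM in well 2 or 5, against at most 2530 CPM in the other 4. With wild-type wells 2 and 5 left out, the log2 differences were -0.67 for Trim63, -0.56 for Fbxo32 and -0.71 for Fbxo30. The part of proliferating or fibroblast-type cells in these differences was not tested.

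**Figure D3:**
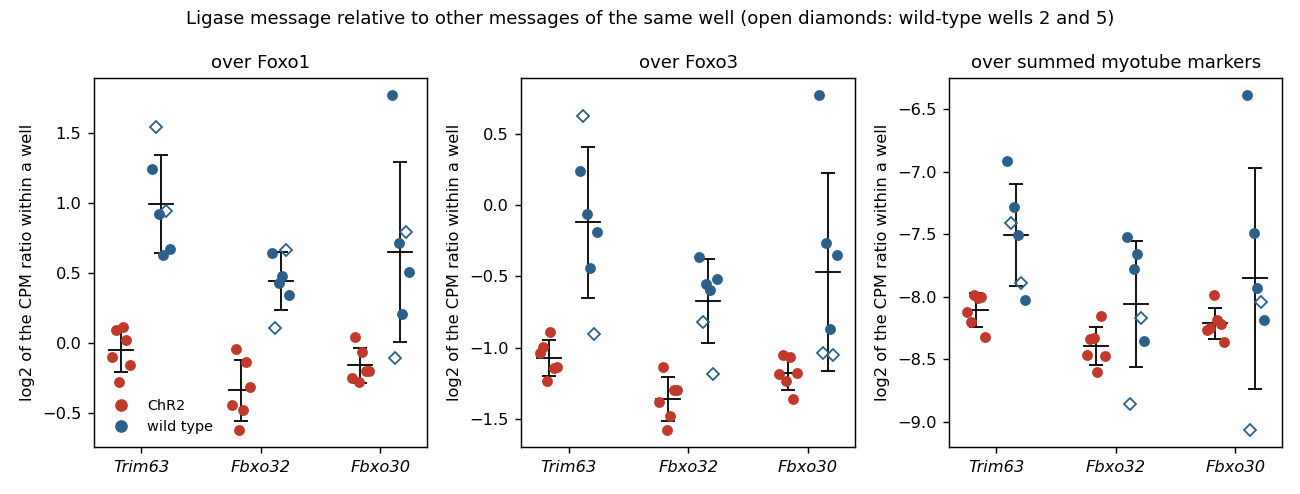
Log2 ratio of Trim63, Fbxo32 and Fbxo30 to Foxo1, to Foxo3 and to the summed level of 10 myotube markers in the same well, with mean and SD (n = 6 wells per line). Open diamonds are wild-type wells 2 and 5. Relative to Foxo1 the wild-type wells lie above all ChR2 wells for Trim63 and Fbxo32, and relative to the myotube markers wild-type well 2 lies lowest for Fbxo32 and Fbxo30.

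Of 23 other ubiquitin ligases of muscle, 8 were called lower, 0 higher and 15 neither, beside 14.1% lower and 14.0% higher among all genes tested, and their median log2 fold change was -0.15. Without wild-type wells 2 and 5 the counts were 8 lower and 1 higher, with upper-quartile scaling 7 and 1, and with DESeq2 9 and 2. The steepest fall was that of Fbxo40, a muscle F-box gene, at 22.9 ± 3.68 CPM with ChR2 and 72.6 ± 35.7 CPM without it (log2 fold change -1.63, adjusted p = 0.00227). The wild-type wells were split here: wells 4 and 6 held 28.7 and 25.9 CPM, near the ChR2 range of 16.9 to 28.1 CPM. The other wild-type wells held 87.8 to 105 CPM. Kbtbd13, a CUL3 adaptor mutated in nemaline myopathy, was low throughout, at 1.08 ± 0.63 and 3.41 ± 2.50 CPM (-1.39, adjusted p = 0.0223), and lost its call without ChR2 well 2, ChR2 well 5 or wild-type well 6 (adjusted p up to 0.0582). The 2 close relatives of Trim63, named after their values were seen, were both called lower: Trim54 (MuRF3) with a log2 fold change of -0.84 and Trim55 (MuRF2) with one of -0.59, or -0.87 and -0.61 without wells 2 and 5.

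The ligases share a common machinery. Of 20 genes for ubiquitin, its E2 enzymes and the SCF core, 2 were called lower and 0 higher, with a median of -0.03. Skp1, the adaptor that binds F-box proteins, stood at 303 ± 31.3 CPM with ChR2 and 435 ± 61.0 CPM without it (log2 fold change -0.52, adjusted p = 0.00701). Without wild-type wells 2 and 5, 5 of the 20 were lower: Skp1 and, with no call over all libraries, Cul1, Uba3, Ube2d3 and Ube2d2a, named after their values were seen. With 1 library left out the count was 1, except without wild-type well 4 or 6, and it was also 1 with upper-quartile scaling.

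Genes reported as FoxO targets went both ways, 4 higher and 8 lower of 25, with a median of -0.14. Without wild-type wells 2 and 5 the counts were the same, but not all of the lower genes. Insr, Gabarapl1 and Txnip lost their call there, and Bcl6, Map1lc3b and Atg12 gained one, all named after their values were seen. With upper-quartile scaling the counts were 4 higher and 3 lower, and with no filter on low counts 4 and 4. Bnip3, a mitophagy receptor, stood at 1310 ± 240 CPM with ChR2 and 738 ± 238 CPM without it (log2 fold change 0.83, adjusted p = 0.0109). Ccng2, a cyclin that accompanies cell cycle exit, was also higher, at 0.59 (adjusted p = 0.00401). In the opposite direction, the autophagy receptor Sqstm1 stood at 257 ± 20.7 and 634 ± 299 CPM (-1.30, adjusted p = 0.00387), and Pdk4, the kinase that restrains pyruvate oxidation, at 22.9 ± 4.84 and 36.3 ± 9.45 CPM (-0.67, adjusted p = 0.0152). For Sqstm1, wild-type wells 4 and 6 held 314 and 244 CPM beside 237 to 294 CPM in ChR2 wells, and the other wild-type wells 670 to 1010 CPM. With 1 library left out, the number of FoxO targets called lower was 3 to 5 without any of the 6 ChR2 wells or without wild-type well 1 or 3, and 6 to 8 without any of the other 4 wells.

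Regulators of FoxO proteins gave 1 higher and 6 lower of 18, or 1 and 7 without wild-type wells 2 and 5, with medians of -0.32 and -0.22. Beside them, 14.0% of all genes tested were higher and 14.1% lower, or 18.9% and 16.3% without those wells. Setd7, a lysine methyltransferase that acts on FOXO3, stood at 122 ± 18.2 CPM with ChR2 and 240 ± 53.9 CPM without it (log2 fold change -0.97, adjusted p = 0.000573), and Sirt1, a FoxO deacetylase, at 14.0 ± 0.842 and 21.4 ± 5.74 CPM (-0.64, adjusted p = 0.00929). Stk3, a Hippo pathway kinase, was the gene called higher (0.71, adjusted p = 0.0276), and it no longer passed when ChR2 well 1, 3 or 4 or wild-type well 1 was left out (adjusted p up to 0.0625).

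Of 27 genes of the PI3K, AKT and mTOR pathway, 8 were called lower and 0 higher, beside 14.1% and 14.0% of all genes tested, and with upper-quartile scaling 5 were lower and 1 higher. Pik3cb, a catalytic subunit of PI3K, fell by 0.84 on the log2 scale (adjusted p = 0.00609). The AKT-related kinase Sgk1, which is also a glucocorticoid target, fell by 0.59 (adjusted p = 0.0311, lost in 8 of the 12 fits that leave out 1 library, up to 0.0821). Over the 10 libraries without wild-type wells 2 and 5 the pathway gave 6 lower and 3 higher, and without ChR2 well 4, 5 or 6 it gave 5, 4 and 5 lower.

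Of 15 tested genes on the glucocorticoid and KLF15 list, 2 were higher and 3 lower, or 3 and 2 without wild-type wells 2 and 5, and 2 and 1 with upper-quartile scaling. Fkbp5, a co-chaperone that the glucocorticoid receptor induces, stood at 24.9 ± 3.07 CPM with ChR2 and 16.9 ± 3.52 CPM without it (log2 fold change 0.53, adjusted p = 0.0103). Dusp1, a phosphatase of the same response, was higher by 0.41 (adjusted p = 0.0309), and by 0.59 (adjusted p = 0.000367) without wild-type wells 2 and 5. Leaving out ChR2 well 2, 3 or 6, or wild-type well 1, 3 or 4, ended its call (adjusted p up to 0.0743). Cebpb, a transcription factor gene, was lower by the same test (-0.88, adjusted p = 0.0372) and not without those 2 wells (-0.34, adjusted p = 0.116), and it lost its call without any single ChR2 well too (adjusted p up to 0.083). Tsc22d3, on the same list and named after its values were seen, was lower (-0.58, adjusted p = 0.0358). Without wild-type wells 2 and 5 it was lower too (-0.38, adjusted p = 0.00731). Sgk1, given above, also counts among the lower genes of this list in both sets of libraries. The count called lower was 0 or 1 without any single ChR2 well or wild-type well 5, and the count called higher was 1 without ChR2 well 2, 3 or 6 or wild-type well 1 or 3.

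Messages for proteins that the ligases are known to mark gave 3 higher and 2 lower of 15 tested, or, with wild-type wells 2 and 5 left out, 5 higher and 1 lower. Kif11, a mitotic kinesin marked by FBXO30 in mammary cells, stood at 53.0 ± 7.44 CPM with ChR2 and 16.6 ± 7.94 CPM without it (log2 fold change 1.59, adjusted p = 0.000239). Eid1, a differentiation inhibitor marked by FBXO21, stood at 87.8 ± 6.85 and 38.2 ± 12.3 CPM (1.16, adjusted p = 0.000621). With 1 library left out, 1 gene was lower except without wild-type well 1 or 4, and with upper-quartile scaling 1 was lower too. Plakoglobin (Jup), which TRIM32 acts on, was lower (-0.63, adjusted p = 0.00397). Desmin (Des) was at -0.63 on the log2 scale (adjusted p = 0.0482), or -0.29 (adjusted p = 0.112) with wild-type wells 2 and 5 left out, and with 1 library left out it passed only without wild-type well 1 or 4.

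Of 19 tested genes of myostatin, bone morphogenetic protein and SMAD signalling, 2 were higher and 5 lower, or 2 and 4 without wild-type wells 2 and 5, and 2 and 2 with upper-quartile scaling. The ligand Bmp4 stood at 3.90 ± 0.743 CPM with ChR2 and 1.22 ± 0.834 CPM without it (log2 fold change 1.59, adjusted p = 0.00138). Gdf5, the ligand tied to muscle mass after denervation, was lower, at 2.37 ± 0.531 and 5.86 ± 2.74 CPM (-1.27, adjusted p = 0.013). Inhba, which encodes activin A subunits, was higher by 0.74 (adjusted p = 0.0122), and the activin receptor Acvr2b was lower by the test (-0.75, adjusted p = 0.0445) but not without wild-type wells 2 and 5 (adjusted p = 0.0719), and with 1 library left out it passed only without ChR2 well 2 or 5 or wild-type well 1 or 2. The count of lower genes was 2 or 3 without any single ChR2 well or without wild-type well 3 or 5, and 4 to 7 without any of the other 4 wells; the count of higher genes was 4 without wild-type well 6.

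**Figure D4:**
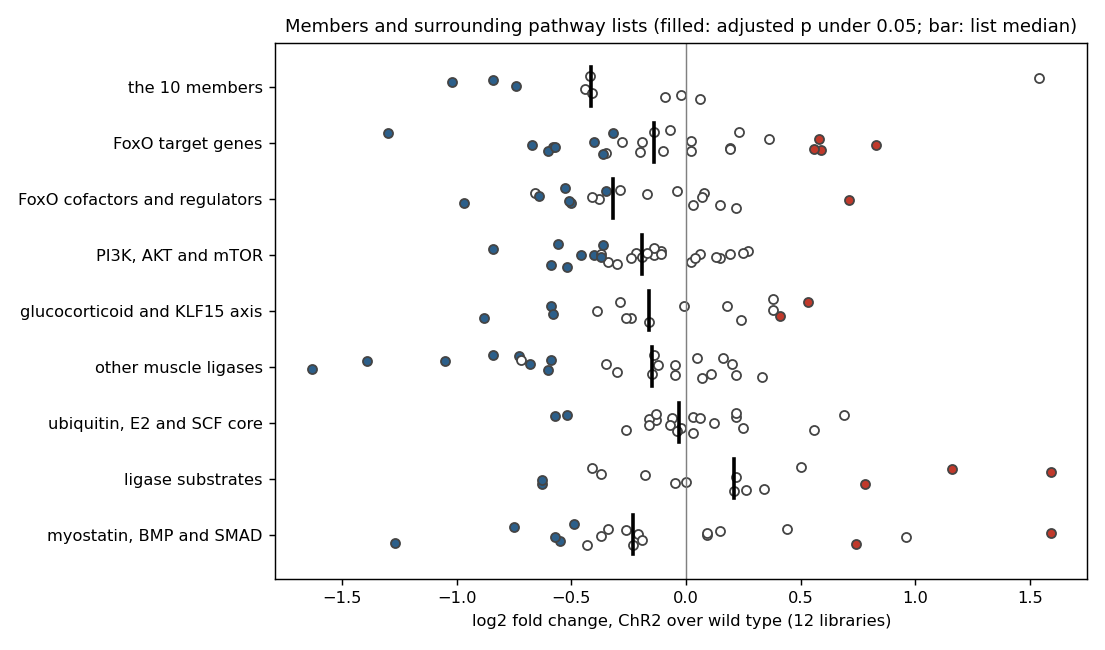
Log2 fold changes, ChR2 over wild type in 12 libraries, of the 10 genes and of 8 surrounding gene lists, with each list's median as a bar. Filled points have an adjusted p under 0.05, red where higher and blue where lower in the ChR2 line. The list of other muscle ligases has 8 filled points below 0 and 0 above.

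Across the 10 libraries without wild-type wells 2 and 5, the genes whose log2 CPM followed Trim63 most closely among 10487 genes of at least 5 CPM were Ephb3 (Pearson r = 0.986), Ccdc86 (0.985) and Abcb6 (0.983). For Fbxo32 they were Il6st (0.980), Cd164 (0.971) and Snx13 (0.967). These values describe 10 points that share the difference between the lines, and within the 6 ChR2 wells the same pairs had r from 0.44 to 0.89 and within the 4 wild-type wells from 0.87 to 0.98. In wild-type wells 2 and 5, where Fbxo32 lay above every ChR2 well, Cd164 held 338 and 487 CPM, below its ChR2 range of 564 to 654 CPM. Snx13 held 89.2 CPM in well 5, below its ChR2 range, and 125 CPM in well 2, above it. Il6st lay above its ChR2 range in both. Over all 12 libraries Cd164 and Snx13 were not called.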

How the data were processed

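RNA of 12 wells was sequenced in paired reads of 50 bases, per the labels' protocols, after poly(A) selection and 14 PCR cycles or, for low-input samples that are not named, after ribosomal RNA depletion. The authors deposited estimated counts per gene and TPM, which is scaled for transcript length and to the same total in each library. The submitters' processing notes name Salmon, STAR, bedtools 2.25.0 and BWA 0.7.12-r1039, and as builds GRCm39, mm10 and hg19, with no role for any of them. No per-sample column was left unused (0).

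Estimated counts were rounded to whole numbers, filtered with filterByExpr (minimum count 10), scaled by TMM and tested with edgeR 4.0.16 (robust quasi-likelihood test, R 4.3.3) between the lines over all genes, with Benjamini-Hochberg adjustment and a threshold of 0.05. Adjusted p-values in the text are from this test unless another is named, and values with ± are mean and SD. limma 3.58.1 and DESeq2 1.42.0 were alternatives. The fitting code was tested on simulated data. Library totals were 1.06 to 13.6 (in units of 1e6 counts), and the counts behind a gene limit its precision.

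The 10 genes and all lists were chosen with earlier results of these data known. From each pathway list the text names up to 2 of the largest rises and 2 of the largest falls among called genes (1 CPM or more in the higher line), and for Trim63 and Fbxo32 the 3 genes of highest correlation. Wells with the same number did not deviate together (r from -0.144 to 0.095 over 6 pairs), so numbers do not pair wells. No 2 libraries of the same line agreed within sampling noise, and pairs between the lines were not compared. Promoters are from RefSeq. One gene that this rule names is not reported here.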

Additional observations from a re-analysis of the deposited data

Results flagged for a closer look

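Among 80 sets of 6 wells, one per line for each of 40 named genes, 8 held a well that stood apart by Dixon's test, where chance gives about 5% of sets. For Trim63 wild-type well 2 stood at 157 CPM and the other wild-type wells at 62.0 to 92.2 CPM. For Fbxo31 the same well stood at 77.3 CPM and the others at 23.0 to 41.4 CPM, and for Des at 5720 CPM against 1800 to 3090 CPM. Wild-type well 5 held 89.2 CPM of Snx13 and the others 119 to 136 CPM. Kif11 reached 31.9 CPM in wild-type well 6 against 9.17 to 16.7 CPM in the others, and Inhba 116 CPM in wild-type well 4 against 48.1 to 58.2 CPM. In the ChR2 line, Cebpb stood at 30.4 CPM in well 2 against 39.6 to 43.9 CPM, and Kbtbd13 at 2.34 CPM in well 1 against 0.661 to 1.01 CPM.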

How the results depend on the processing

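Over 25 alternatives the calls of Trim63, Fbxo32 and Fbxo30 were kept in 22 each and lost in the 3 TPM fits over all 12 libraries. In those fits, on log2(TPM + 1), on log2(TPM + 0.1) and on log2(TPM + 1) without a filter, Trim63 was at -0.54, -0.55 and -0.54, Fbxo32 at -0.29 in each and Fbxo30 at -0.41 in each. Reversed to positive in the same order were Fbxo21 (0.33, 0.38, 0.33), Foxo3 (0.33, 0.36, 0.33) and Trim32 (0.00, 0.01, 0.00). The fits called 620, 271 and 425 genes (592, 254 and 402 higher, 28, 17 and 23 lower), 0 of the 10 genes lower, and the first called Klf15 (0.90), 1 gene higher. Higher genes made up 95.5%, 93.7% and 94.6% of these calls against 49.7% in the main comparison, and 7SL RNA took 72.0% and 50.8% of TPM in wild-type wells 2 and 5.

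Without wild-type wells 2 and 5 Fbxo21 (0.16) and Foxo3 (0.13) changed sign, as they did on log2(TPM + 1) without those wells (0.09 and 0.05), where Klf15 was called (0.88), 1 gene higher; that alternative and the within-well ratios were chosen after seeing the data. Fbxo21 also changed sign with upper-quartile scaling (0.05), DESeq2 (0.02) and voom with quality weights (0.06). In the 3 TPM fits over 12 libraries 0 genes of any pathway list were lower. With voom Foxo3 was at 0.02, Klf15 was called (2.89), 1 gene higher, and 2781 genes were higher. DESeq2, run without the low-count filter on 26664 genes, gave a median log2 fold change of -0.18, beside -0.05 for edgeR without the filter over as many genes and -0.02 for the 13168 filtered genes; tool and filter differ together from the main comparison. The causes were not tested.

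With a replicate block, which pairs wells by their number, 1171 genes were lower and 2641 were called, and no call among the 10 genes changed. The block gave 2 lower FoxO targets, 3 lower FoxO regulators, 4 lower PI3K, AKT and mTOR genes, 0 lower glucocorticoid and KLF15 genes and 2 lower myostatin, BMP and SMAD genes. Only ChR2 well 6 correlated best with its own number.

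With each library left out in turn, 2822 to 4115 genes were called, 1497 to 2120 higher and 1284 to 2127 lower, with 0 to 1 of the 10 genes higher and 3 to 4 lower. The log2 fold changes ran from -1.11 to -0.82 for Trim63, -0.80 to -0.68 for Fbxo32, -0.92 to -0.65 for Fbxo30, -0.09 to 0.08 for Fbxo21, -0.55 to -0.22 for Fbxo31, -0.01 to 0.11 for Foxo1, -0.18 to 0.07 for Foxo3, -0.51 to -0.30 for Foxo4, 1.22 to 2.69 for Klf15 and -0.52 to -0.25 for Trim32. Fbxo21 changed sign without ChR2 well 2 (0.00) and wild-type well 2 (0.06) or 5 (0.08), Foxo1 without wild-type well 1 (-0.01) and Foxo3 without wild-type well 5 (0.07). For Klf15, wild-type wells of like depth (10.3 and 11.7, in units of 1e6 counts) held 1 and 32 counts.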
